A study of Gasterosteus aculeatus with 242 samples.

Results

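In the brains of juvenile threespine sticklebacks, 37 of 22456 gene identifiers were strongly and regularly higher in males than in females. They were selected on that measured difference: a mean of at least 1 count per 1000000 counts (CPM) in males, a log2 ratio of male to female mean of at least 0.7 after 0.1 CPM was added to both, and a male mean above the female mean in all 16 families. The values that chose these genes are therefore given as a description, and no test of the sex difference is reported for them. Of the 37 genes, 9 were male-limited, 4 were present in both sexes with no overlap between fish, and 24 were graded. Male-limited means here that fewer than 25% of females had any count and that the female mean was at most 5% of the male mean. Separated means that the lowest male lay above the highest female. Graded covers the rest.

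Threespine sticklebacks (Gasterosteus aculeatus) have an XY sex chromosome system in which males carry the Y. A difference in expression between the sexes can come from a gene on a sex chromosome or from a gene elsewhere that is regulated differently in males and females. The first kind includes genes with a copy on the Y alone, and pairs of X and Y copies that have diverged. In this species the father alone tends the nest and the fry. None of the 22456 identifiers could be paired with a gene name or a chromosome in the tables used here, so each gene is given by its identifier, and no role is assigned to it.

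The fathers were wild-caught in Putah Creek. Their young either stayed in paternal care (labelled Day 10) or were orphaned and hand-reared (labelled Day 0). Immature fish aged 6 to 8 months formed 2 exposure groups. Open-field fish explored a pool alone for 10 minutes, met a model sculpin moved as if attacking, and had the brain removed 60 minutes afterwards. Baseline fish were full siblings that came straight from the home tank, so the comparison of exposure covers pool, model and elapsed time at once. The submitters sexed the fish with a DNA marker and took RNA from 1 side of the brain, left or right. The groups analysed were 39 males and 25 females that were hand-reared and at baseline, 27 males and 32 females that were hand-reared and put in the open field, 31 males and 26 females that were father-reared and at baseline, and 35 females and 26 males that were father-reared and put in the open field. The families number 8 per rearing group, each with 3 to 11 males and 4 to 12 females. Per the series' design text it was a half-sib design, and no source used here says which families share a parent.

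The assay was 3′ tag sequencing, in which reads come from the end of the transcript next to the poly(A) tail, so a count stands for a transcript end. The libraries analysed held between 706544 and 1529047 counts, with a median of 1000618 in males and 1017820.5 in females, so 1 count is worth close to 1 CPM. A further hand-reared open-field male, with 2055 counts, was left out. In these bulk samples, fewer cells of a type and less RNA per cell cannot be told apart. The labelled tissue could not be checked against brain markers because the identifiers carry no names. Each male had counts for at least 5 of the 9 male-limited genes, with a median of 8.0, and 34 males for all 9. Among the females, 75 had counts for none of the 9, 32 for 1, 9 for 2 and 2 for 3. The genes were chosen with the sex labels, so these counts are a description and no check of the labels.

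The rule was met by few genes. Of 12782 genes with a male mean of at least 1 CPM, 85 reached the log2 ratio and 37, or 0.289%, were also higher in males in every family. Of the 48 genes lost at that last step, 10 were higher in males in 15 families and 20 in 12 or fewer. Just inside the limit on the ratio lay ENSGACG00000011311 (0.72) and ENSGACG00000000137 (0.73), and just outside it ENSGACG00000000129 (0.65) and ENSGACG00000011340 (0.65). Just inside the limit on level lay ENSGACG00000006487 (1.23 CPM in males) and ENSGACG00000013700 (1.47 CPM), and just outside it ENSGACG00000011138 (0.977 CPM) and ENSGACG00000011177 (0.890 CPM). Of the genes that missed by 1 family, ENSGACG00000013564 had the highest ratio, 2.72 on the log2 scale with means of 1.395 CPM in males and 0.128 CPM in females, and ENSGACG00000010898 followed at 1.25.

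The ratios of the 37 genes were spread over a wide range rather than gathered near 1 value. The log2 ratio lay between 0.7 and 1 in 9 genes, between 1 and 1.5 in 9, between 1.5 and 2.5 in 6, between 2.5 and 3.5 in 4 and above 3.5 in 9. The same rule turned round selected 1.04% of all identifiers as higher in females, where the 37 genes make up 0.165%. Those female-higher genes had log2 ratios from -1.36 to -0.70 and a median of -0.97. None of them lay beyond -1.5, whereas 19 of the 37 male-higher genes lay beyond 1.5. Both counts describe genes that were selected on the same values. In the plot of mean levels the male-limited genes lie at the left by the definition of their class, with female means of at most 0.150 CPM. The graded ENSGACG00000012226 and ENSGACG00000010230 lie next to them, with female means of 0.235 and 0.352 CPM. The graded genes have log2 ratios from 0.72 to 3.24 with a median of 1.12.

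**Figure D1:**
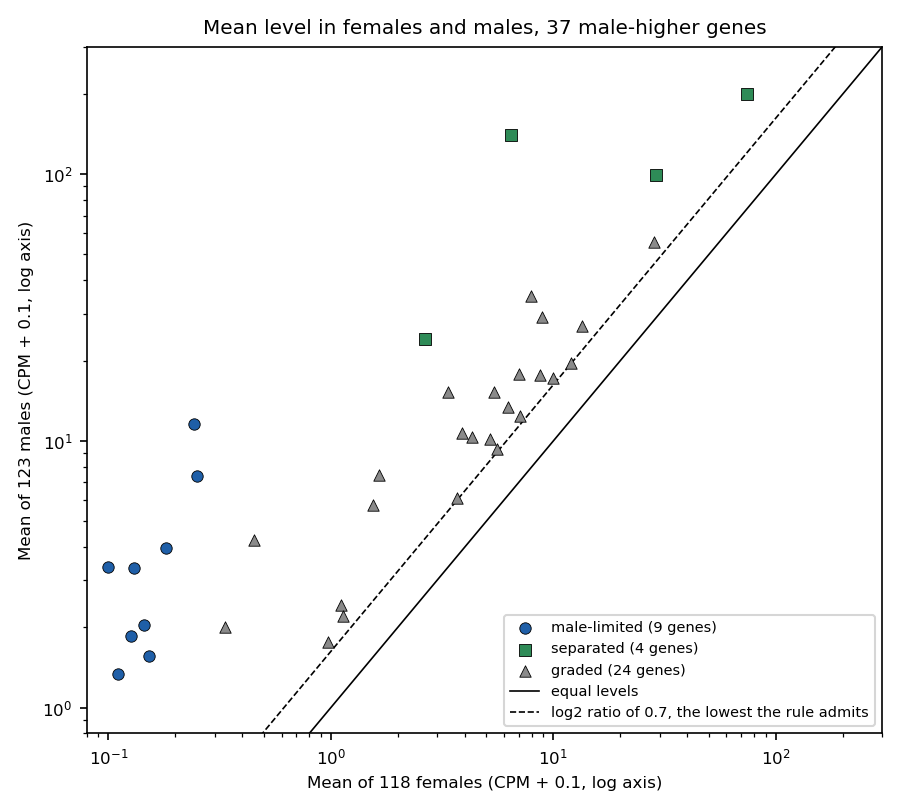
Mean CPM of all males (vertical) against mean CPM of all females (horizontal), each plus 0.1, on log axes, for the 37 genes; circles are the 9 male-limited, squares the 4 separated and triangles the 24 graded genes. The solid line marks equal levels and the dashed line a log2 ratio of 0.7, above which every gene lies by the way it was chosen.

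All 9 male-limited genes were of low abundance. Their summed level was 35.5 ± 12.3 CPM in males (SD over all males, as below), from 16.8 to 82.5 CPM, and 0.540 ± 0.846 CPM in females (SD over all females), from 0 to 4.30 CPM. No male fell into the female range. ENSGACG00000003306 was the most abundant, at 11.4 ± 9.76 CPM in males, with a lowest male of 1.03, a median of 8.46 and a highest of 51.2 CPM. All males had counts for it, as did 16 females, none with more than 2 counts, and the female mean was 0.143 ± 0.381 CPM. ENSGACG00000013600 followed at 7.27 ± 3.25 CPM in males, from 2.07 through a median of 6.87 to 17.1 CPM, and again every male had counts. In females it averaged 0.150 ± 0.466 CPM, with counts in 13 fish and a highest female of 2.47 CPM. For both genes a handful of males lay at or below the highest female, 5 for ENSGACG00000003306 and 3 for ENSGACG00000013600.

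The gene with the cleanest absence in females was ENSGACG00000013612. It had 412 counts over the males, at 3.26 ± 2.11 CPM, from 0 through a median of 3.02 to 12.6 CPM, and 0 counts in all females. With 3 counts over all females as the floor, a level of 0.0247 CPM, males were at least 132.3-fold higher. All but 6 males had counts, so those 6 males could not be told from females by this gene alone. ENSGACG00000001482 had nearly the same level in males, 3.23 ± 1.86 CPM, from 0 through a median of 3.09 to 8.24 CPM, and 4 counts in 4 females. ENSGACG00000011745 averaged 3.88 ± 2.11 CPM in males, from 0 through a median of 3.70 to 10.0 CPM, with counts in 120 males. Over the females it had 10 counts in 8 fish, the highest at 1.85 CPM.

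The remaining 4 male-limited genes lay at the edge of detection in males. ENSGACG00000013963 averaged 1.94 ± 1.45 CPM in males, with a median of 1.73 and a highest male of 6.40 CPM, and counts in all but 17 males and in 6 females. ENSGACG00000014210 averaged 1.75 ± 1.41 CPM, with a median of 1.73 and a highest male of 5.45 CPM, and counts in 93 males and 3 females. At these levels many libraries hold no count by sampling alone, so a male without a count is not shown to lack the transcript. ENSGACG00000013700 averaged 1.47 ± 1.36 CPM, with a median of 1.06 and a highest male of 6.43 CPM, and counts in 88 males and 5 females. ENSGACG00000006487 averaged 1.23 ± 1.22 CPM, with a median of 1.014 and a highest male of 6.04 CPM, and counts in 81 males and 1 female. The lowest male was at 0 for all 4. The size of a log2 ratio of a male-limited gene depends on the amount added to both means: with 0.5 in place of 0.1 CPM, that of ENSGACG00000003306 went from 5.57 to 4.21 and that of ENSGACG00000013612 from 5.07 to 2.91.

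The 4 separated genes include the 3 most abundant of the 37, and females had the transcript too: 87.3% of them had counts for 1 gene, 98.3% for another and 100% for the other two. ENSGACG00000006281 averaged 139.9 ± 30.6 CPM in males, from 56.9 through a median of 141.2 to 241.7 CPM, and 6.37 ± 2.79 CPM in females, with a median of 5.99 and a highest female of 15.6 CPM. The lowest male was thus far above the highest female, and the ratio of means was 22.0. ENSGACG00000013939 averaged 24.1 ± 6.28 CPM in males, from 11.2 through a median of 23.1 to 44.1 CPM. In females it averaged 2.55 ± 1.85 CPM, from 0 through a median of 2.37 to 9.57 CPM, a ratio of 9.44. Its gap between the sexes was narrow, between 9.57 and 11.2 CPM.

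The other separated genes had smaller ratios but less spread. ENSGACG00000010067 averaged 98.9 ± 16.6 CPM in males, from 69.2 through a median of 97.5 to 150.4 CPM. Its females averaged 28.7 ± 7.53 CPM, from 12.6 through a median of 27.8 to 51.1 CPM, a ratio of 3.45. ENSGACG00000012099, the most abundant of the 37, averaged 199.6 ± 33.97 CPM in males, from 126.7 through a median of 198.4 to 278.7 CPM. Its females averaged 73.7 ± 13.9 CPM, from 47.5 through a median of 72.1 to 108.99 CPM, a ratio of 2.71. Females thus reached 36.9% of the male mean for this gene and only 4.55% for ENSGACG00000006281, although both kept the sexes fully apart.

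**Figure D2:**
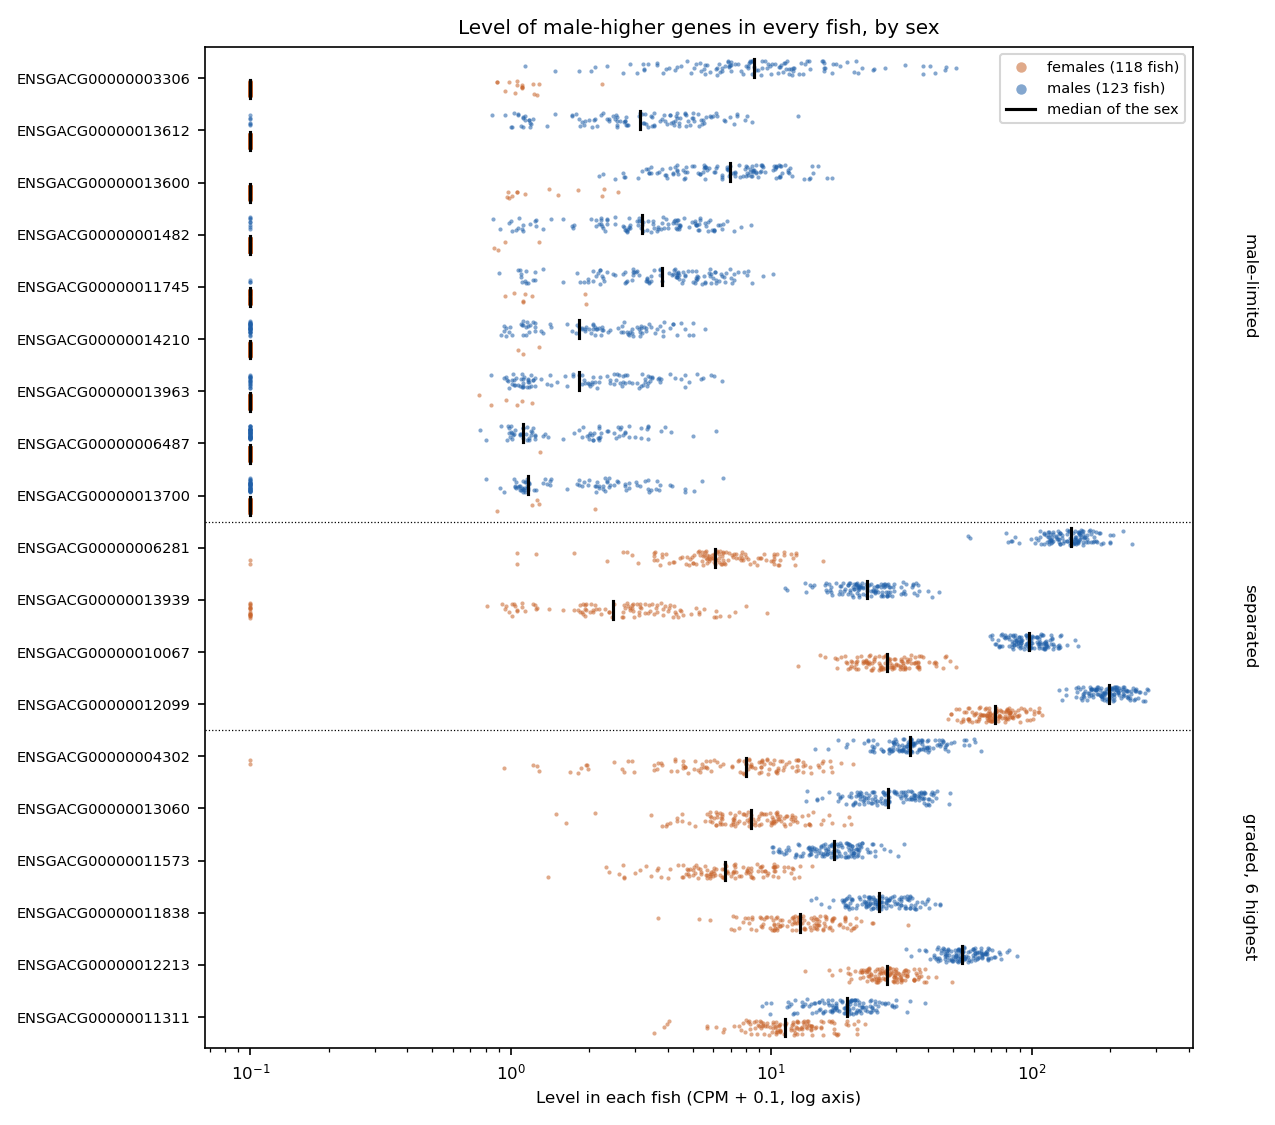
Level of each fish (CPM plus 0.1, log axis) for the 9 male-limited, the 4 separated and the 6 most abundant graded genes, with males above and females below in each row and a bar at the median of the sex. Fish without a count lie at 0.1; the sexes overlap in the graded rows and stay apart in the separated rows.

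In the 24 graded genes the ranges of males and females overlapped, with female means from 8.45% to 60.6% of the male mean. ENSGACG00000012213 was the most abundant, at 55.5 ± 10.1 CPM in males, from 32.7 through a median of 54.1 to 87.7 CPM, and 28.3 ± 5.76 CPM in females, from 13.3 through a median of 27.8 to 49.5 CPM. Of the males 36 lay at or below the highest female. ENSGACG00000004302 averaged 35.0 ± 9.10 CPM in males, from 14.7 through a median of 33.9 to 63.6 CPM, and 7.87 ± 4.42 CPM in females, from 0 through a median of 7.88 to 20.5 CPM. It came close to separation, since only 5 males reached down into the female range. ENSGACG00000013060 averaged 29.1 ± 7.96 CPM in males, from 13.4 through a median of 27.9 to 48.3 CPM, and 8.80 ± 3.59 CPM in females, from 1.39 through a median of 8.23 to 20.2 CPM. Its overlap was also small, with 15 males at or below the highest female.

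The next 3 graded genes were less abundant. ENSGACG00000011838 averaged 26.9 ± 6.38 CPM in males, from 14.1 through a median of 25.9 to 44.4 CPM, and 13.3 ± 4.56 CPM in females, from 3.57 through a median of 12.7 to 33.4 CPM. ENSGACG00000011311, the gene nearest the limit on the ratio, averaged 19.5 ± 5.33 CPM in males, from 9.14 through a median of 19.4 to 38.8 CPM. Its females averaged 11.8 ± 3.98 CPM, from 3.44 through a median of 11.2 to 22.7 CPM, and 94 males lay at or below the highest of them. ENSGACG00000011573 averaged 17.7 ± 4.36 CPM in males, from 9.98 through a median of 17.3 to 32.4 CPM, and 6.90 ± 2.67 CPM in females, from 1.29 through a median of 6.56 to 14.2 CPM. Of its males 28 lay at or below the highest female.

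The other 18 graded genes had male means from 1.66 to 17.6 CPM and log2 ratios from 0.73 to 3.24. ENSGACG00000010230 stood nearest to the male-limited class, with 4.17 ± 2.23 CPM in males and 0.352 ± 0.659 CPM in females and counts in 27.1% of females. ENSGACG00000012226 had counts in 16.1% of females, but its female mean of 0.235 CPM was 12.4% of the male mean of 1.90 CPM. Log2 ratios above 1.5 were also found for ENSGACG00000013149 (2.18), ENSGACG00000012805 (2.18) and ENSGACG00000012640 (1.90). Between 1 and 1.5 lay ENSGACG00000011050 (1.49), ENSGACG00000012647 (1.46), ENSGACG00000011684 (1.27), ENSGACG00000011141 (1.14), ENSGACG00000011944 (1.11) and ENSGACG00000013030 (1.02). In this range the female mean was 35.2% to 48.97% of the male mean. Below 1 lay ENSGACG00000000125 (0.97), ENSGACG00000003422 (0.96), ENSGACG00000013049 (0.87), ENSGACG00000010891 (0.80), ENSGACG00000012079 (0.79), ENSGACG00000000107 (0.74) and ENSGACG00000000137 (0.73). The last of these overlapped almost fully, with 35 males below the female median.

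Every family had to show the direction, so the shared sign among families is part of the choice and not a result. The size within families was not fixed by it, apart from what the classes require. In the 4 separated genes the lowest family mean of males lay above the highest family mean of females by definition. It also did so in all 9 male-limited genes, where the limits on the female level make this likely. Among the 24 graded genes it did so in 16. ENSGACG00000006281 ranged from a log2 ratio of 3.89 in family 26 to 4.87 in family 22, and ENSGACG00000012099 from 1.24 in family 7 to 1.58 in family 22. At the other end, ENSGACG00000013049 ranged from 0.04 in family 22 to 1.71 in family 4, and ENSGACG00000000107 had 1 family mean of males above all family means of females.

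The direction was also seen in each condition and each set of libraries, again as a description of the fish that chose the genes. All 37 genes had a log2 ratio above 0 in each of the 4 combinations of rearing and exposure, and the ratio reached 0.7 in 34 genes at baseline and 36 after the open field under hand-rearing, and in 34 and 34 under paternal care. The median ratio was 1.62, 1.83, 1.61 and 1.62 in the same order. Library names begin with 1, 2 or 3. The labels do not say what this digit stands for, and the libraries that share it are called a set here. Each of the 3 sets alone gave 37 ratios above 0, of which 33, 35 and 36 were at least 0.7, the lowest being 0.30 for ENSGACG00000000107 in set 1.

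Whether the open field changed these genes was tested within each sex, a contrast that the selection did not use, with edgeR's quasi-likelihood test over all 14455 genes with a mean of at least 0.5 CPM. All 37 genes passed that filter, which their male means alone could bring about. In males 0 of 37 genes were called at an adjusted p under 0.05, where 0.152% of all tested genes were. Of the 37, 1 had an unadjusted p under 0.05, as did 5.12% of all tested genes. DESeq2 and limma-voom also called 0 of the 37. The median log2 fold change from baseline to open field was -0.01 over the 37 genes and 0.00275 over all genes. The differences ran from -0.31 to 0.24 on the log2 scale, and the 95% interval lay within 1.5-fold of no change for 31 of the 37 genes and within 2-fold for all 37.

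The 4 separated genes had differences close to 0 between baseline and open field. ENSGACG00000012099 had a log2 fold change of 0.0035 (SE 0.03), ENSGACG00000010067 of 0.03 (SE 0.04), ENSGACG00000006281 of -0.03 (SE 0.04) and ENSGACG00000013939 of 0.02 (SE 0.07). The smallest p belonged to the male-limited ENSGACG00000011745, which averaged 4.24 ± 2.18 CPM in 70 baseline males and 3.40 ± 1.93 CPM in 53 open-field males (log2 fold change -0.31, SE 0.14, edgeR adjusted p = 0.93). Baseline and open-field males overlapped over most of the range of this gene.

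In females 0 of 36 genes were called for exposure, where 0.284% of all tested genes were. ENSGACG00000013612 has no counts in females and could not be tested. The other 8 male-limited genes passed the filter through the males alone and hold only 1 to 18 counts over all females, so a test in females says next to nothing about them. Among the 28 separated and graded genes, with at least 27 counts over all females each, 0 were called. They still include the graded ENSGACG00000010230 and ENSGACG00000012226, with female means of 0.352 and 0.235 CPM, which also passed the filter through the males. Of the 36, 2 had an unadjusted p under 0.05, as did 5.67% of all tested genes. DESeq2 and limma-voom called 0 of the 36. The smallest p was again that of ENSGACG00000011745: its 10 counts in females all came from open-field fish, 8 of 67, and none from the 51 baseline females (edgeR adjusted p = 0.44). The difference between the sexes in the response called 0 of 37 genes, and 0.0% of all 14455, with 673 genes at an unadjusted p under 0.05, 2 of them among the 37. The male-limited genes hold at most 18 counts each over all females, so this test says next to nothing about them either. DESeq2 and limma-voom also called 0 genes for it. For ENSGACG00000011745, with those 10 counts in females, that test gave an adjusted p of 0.80 by edgeR. A p that misses the threshold does not show that the sexes respond alike.

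**Figure D3:**
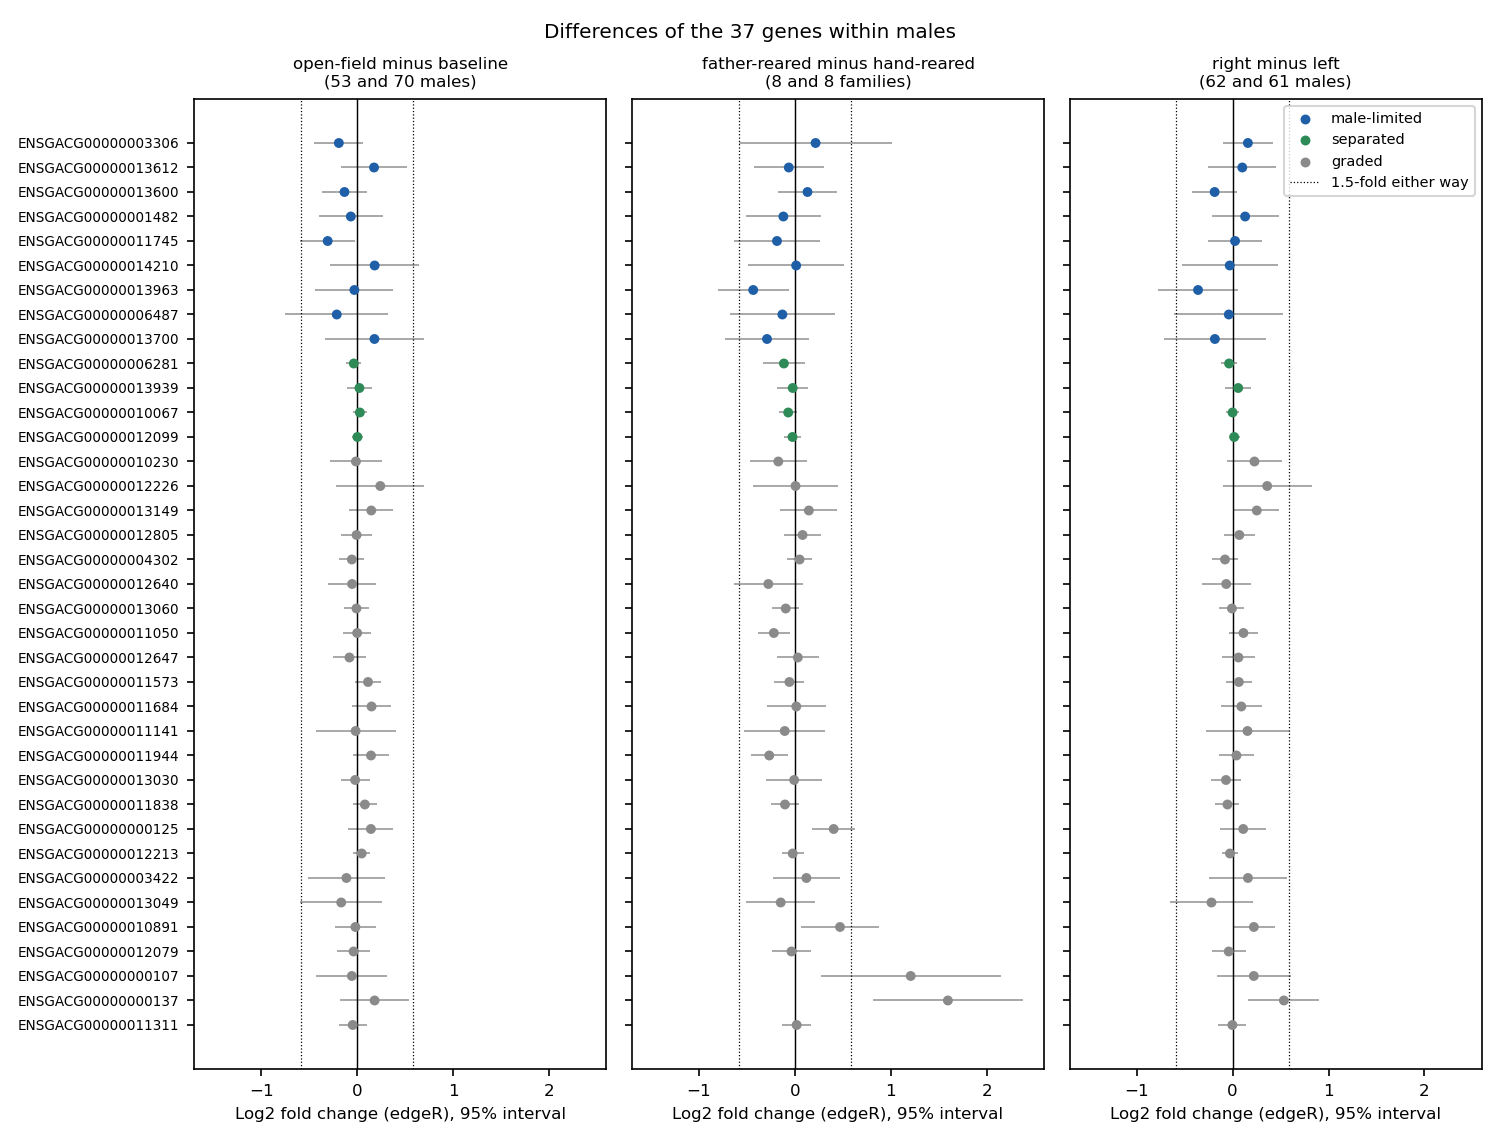
Log2 fold changes within males (points) with 95% intervals (lines) for the 37 genes, from left to right open field minus baseline, father-reared minus hand-reared over 8 and 8 families, and right minus left brain side; dotted lines mark 1.5-fold. Most points lie within the dotted lines; ENSGACG00000000107 and ENSGACG00000000137 lie beyond them for rearing, with adjusted p of 0.41 and 0.17.

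Rearing was given to whole families, so it was tested on counts summed over the males or the females of a family, 8 families against 8. The test treats the families as independent. Families that share a parent are not, and which ones do is not known here, so its errors and p values do not allow for that. In males 0 of 37 genes were called, and 0.0% of all 14455, with 1280 genes at an unadjusted p under 0.05, 7 of them among the 37. On the same sums limma-voom called 0 genes and DESeq2 called 86, of which 1 was among the 37. That gene was ENSGACG00000000137, the lowest but one in sex ratio. Its males averaged 3.21 ± 2.28 CPM in hand-reared fish (n = 66) and 9.28 ± 8.66 CPM in father-reared fish (n = 57), a log2 fold change of 1.60 (SE 0.37) over families with an adjusted p of 0.17 by edgeR, 0.0075 by DESeq2 and 0.51 by limma-voom.

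The family means show how this difference arose. The males of the 8 hand-reared families averaged between 2.39 and 5.66 CPM of ENSGACG00000000137. Those of the 8 father-reared families averaged 3.48, 5.36, 5.63, 5.65, 5.65, 10.1, 17.0 and 23.3 CPM. The 3 highest were families 20, 26 and 31. Families 7, 17, 19 and 35, at 5.36 to 5.65 CPM, lay above every hand-reared family except family 32, which has 3 males and averaged 5.66 CPM. The next hand-reared family was family 22 at 4.14 CPM. Father-reared family 27, at 3.48 CPM, lay within the hand-reared range. Without family 31 the log2 fold change was 1.23 (SE 0.30, edgeR adjusted p = 0.27). The same direction was seen in males for ENSGACG00000000107 (1.21, SE 0.45, edgeR adjusted p = 0.41), ENSGACG00000010891 (0.47, SE 0.19, adjusted p = 0.47) and ENSGACG00000000125 (0.40, SE 0.11, adjusted p = 0.22). With single fish in place of families as replicates, edgeR called ENSGACG00000000137 and ENSGACG00000000107 in males and in females, a fit that treats siblings as independent. The median log2 fold change for rearing was -0.02 over the 37 genes and -0.0035 over all genes in males.

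The 9 male-limited genes had log2 fold changes between father-reared and hand-reared males from -0.43 to 0.22. The lowest was that of ENSGACG00000013963 (unadjusted p = 0.027, edgeR adjusted p = 0.48) and the highest that of ENSGACG00000003306 (SE 0.38, edgeR adjusted p = 0.94). The 4 separated genes had log2 fold changes of -0.11 (SE 0.10) for ENSGACG00000006281, -0.02 (SE 0.08) for ENSGACG00000013939, -0.07 (SE 0.04) for ENSGACG00000010067 and -0.02 (SE 0.04) for ENSGACG00000012099. Over the 37 genes the 95% interval lay within 1.5-fold for 27 and within 2-fold for 34. In females 0 of 36 genes and 0.0% of all tested genes were called for rearing by edgeR, with 804 genes at an unadjusted p under 0.05, 3 of them among the 36. Among the 28 separated and graded genes 0 were called. The 8 male-limited genes had too few female counts here as well, and ENSGACG00000010230 and ENSGACG00000012226 again passed the filter through the males. DESeq2 called 4 genes, none among the 36, and limma-voom 0. ENSGACG00000000137 again had the smallest p, with a log2 fold change of 1.59 (SE 0.40, edgeR adjusted p = 0.61). Whether the sex ratio differed between the rearing groups was also tested, on the family sums of both sexes. Over all tested genes, edgeR and DESeq2 each found 0 and limma-voom 1, which was not among the 37. No conclusion about the 37 genes is drawn from this test, because their choice used the same family means of both sexes.

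The side of the brain used for RNA also called 0 of 37 genes in males, where 0.0138% of all tested genes were called. Of the 37, 3 had an unadjusted p under 0.05, as did 7.0% of all tested genes. DESeq2 and limma-voom called 0 of the 37. The largest difference was that of ENSGACG00000000137, with 4.88 ± 4.81 CPM for the 61 males of which the left side was used and 7.15 ± 8.22 CPM for the 62 of which the right side was used (log2 fold change 0.53, SE 0.19, edgeR adjusted p = 0.43). The 95% interval lay within 1.5-fold for 30 of the 37 genes and within 2-fold for all 37.

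Males of different families did differ in some of these genes. A test of the 15 family terms in males had exposure, side and library set as covariates. It called 7 of 37 genes (18.9%) where it called 25.4% of all tested genes. In library sets 1, 2 and 3 alone it called 3, 5 and 3 of the 37 genes (8.11%, 13.5% and 8.11%). There it called 5.11%, 6.21% and 2.79% of all tested genes. The shares in single sets rest on few genes. The choice of the 37 genes used the family means, since those of males had to lie above those of females. The other tested genes were not chosen in this way, so no conclusion about the 37 genes is drawn from these shares. Rearing is nested in family, and care, parents and tank cannot be told apart in it. The 7 genes were ENSGACG00000003306 (edgeR adjusted p = 1.5e-16), ENSGACG00000000107 (5.9e-14), ENSGACG00000000137 (9.2e-14), ENSGACG00000006281 (1.2e-07), ENSGACG00000010891 (1.1e-05), ENSGACG00000013030 (0.0016) and ENSGACG00000011745 (0.024). They include 2 male-limited genes, 1 separated gene and 4 graded genes. The first 3 were also called in each of the 3 library sets alone.

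The male-limited ENSGACG00000003306 had the smallest p for family and a coefficient of variation of 85.3% over all males. Its family means in males were 3.61 CPM in family 17, 4.99 in family 22, 5.85 in family 32, 6.69 in family 26, 7.08 in family 4, 7.49 in family 30, 7.97 in family 27, 8.01 in family 25, 8.59 in family 40 and 8.79 in family 11. They were 11.2 CPM in family 31, 11.7 in family 7, 14.5 in family 20, 16.3 in family 19, 23.9 in family 35 and 32.7 in family 39. Families 35 and 39 were singled out after these values were seen. Each of the 9 males of family 39, which was hand-reared, lay between 19.4 and 46.9 CPM. Its 3 open-field males were its 3 lowest, at 19.4, 20.7 and 21.4 CPM, and its 6 baseline males lay between 27.3 and 46.9 CPM, while over all males the gene was not called for exposure (log2 fold change -0.19, SE 0.13, edgeR adjusted p = 0.99). The males outside families 35 and 39 lay between 1.03 and 24.8 CPM with a median of 8.21 CPM.

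Family 35, which was father-reared, held low and high males and none in between. Its 6 males had 2.94, 4.40, 5.71, 32.5, 46.5 and 51.2 CPM of ENSGACG00000003306, from 3, 4, 7, 27, 49 and 49 counts. The 3 low males were 1 open-field and 2 baseline fish, and the 3 high males 2 open-field and 1 baseline fish. Left and right sides and library sets 1 and 2 occurred among both, and their libraries held between 829989 and 1225782 counts. In the 14 females of these 2 families, 3 had counts for the gene, and over all families the 16 females with counts came from 12 families. Without families 35 and 39 the family test still called the gene (edgeR adjusted p = 2.6e-08).

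The separated ENSGACG00000006281 was low in 1 family. The 6 males of family 26, which was father-reared, averaged 82.2 ± 25.9 CPM, from 56.9 to 127.9 CPM. Family means were 116.6 CPM in family 32, 118.9 in family 20, 122.7 in family 25, 126.8 in family 31, 140.8 in family 7, 141.5 in family 19 and 141.9 in family 35. The remaining 8 families lay between 144.5 and 170.0 CPM. Females of family 26 averaged 5.46 ± 1.87 CPM, within the range of 4.65 to 7.39 CPM of the family means in females. Without family 26 the call for family in males was lost (edgeR adjusted p = 0.072), so the call depended on that family. A p that misses the threshold does not show that the other families, at 116.6 to 170.0 CPM, were alike. In the males of family 26 ENSGACG00000013030, a graded gene, was also at its lowest, at 9.24 ± 4.22 CPM where the other families lay between 13.8 and 23.5 CPM. ENSGACG00000011745 was lowest in family 7, at 1.27 ± 1.07 CPM in 8 males, with the other families between 2.41 and 5.75 CPM.

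**Figure D4:**
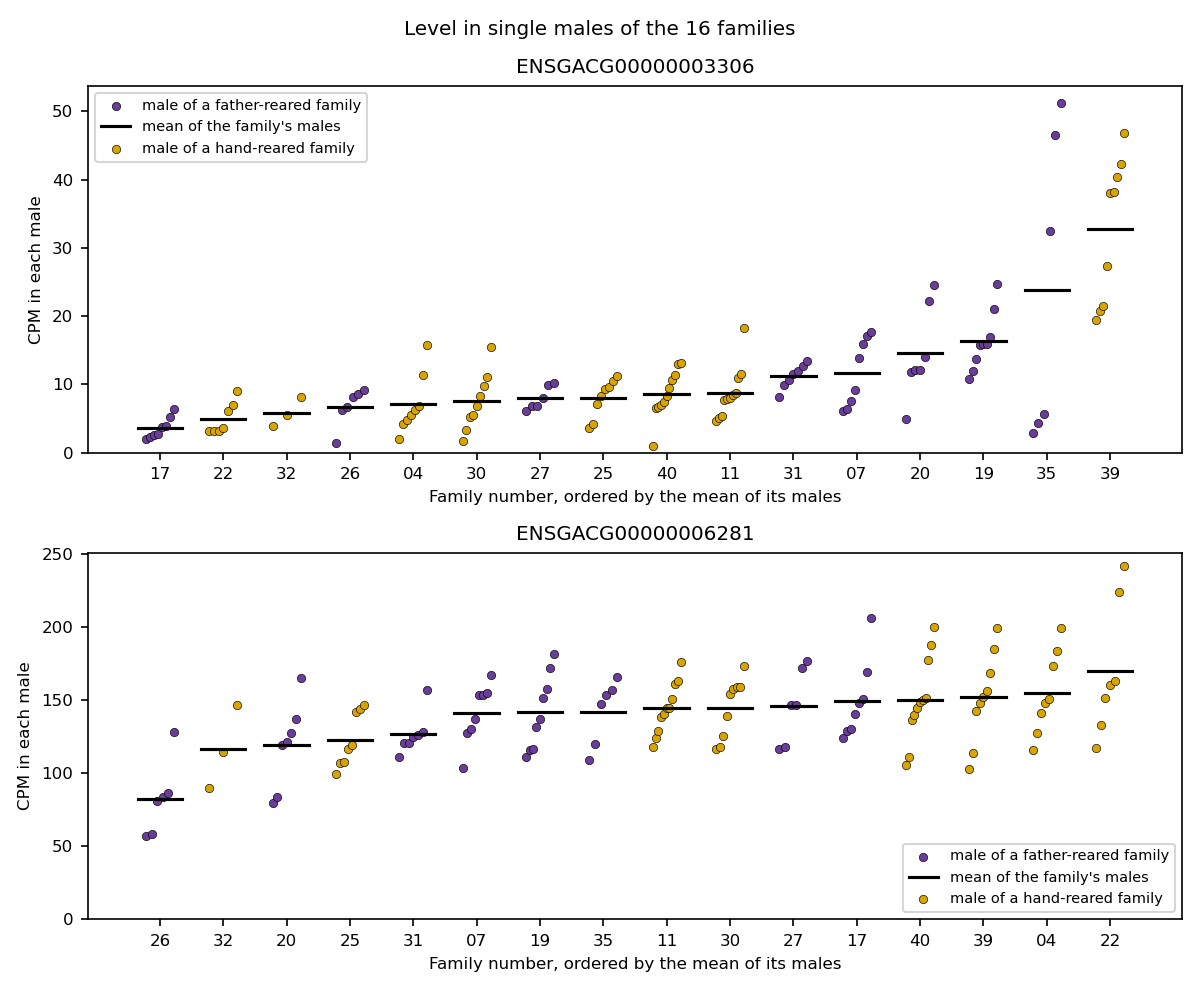
Level (CPM) of ENSGACG00000003306 (top) and ENSGACG00000006281 (bottom) in each male, by family, ordered by the mean of its males (black bars), with father-reared families in purple and hand-reared families in yellow. In the top panel the males of family 39 lie between 19.4 and 46.9 CPM and those of family 35 fall into 3 low and 3 high fish; in the bottom panel family 26 has the lowest mean, 82.2 CPM.

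In 3 of the 4 graded genes called for family in males, the family with the highest males also had the highest females. These were ENSGACG00000000107, ENSGACG00000000137 and ENSGACG00000010891. The fourth, ENSGACG00000013030, was highest in family 17 among males, at 23.5 CPM, and in family 25 among females, at 12.6 CPM, while family 26 was its lowest in both sexes, at 9.24 and 5.84 CPM. In family 31, which was father-reared, ENSGACG00000000107 averaged 43.4 ± 26.5 CPM over 7 males and 24.4 ± 9.77 CPM in 8 females. Outside that family its mean was 7.12 CPM for males and 4.09 CPM for females. Females of family 31 thus exceeded the males of every other family on average. The other family means of males for this gene were 14.3 CPM in family 35, 13.1 in family 27, 12.54 in family 4, 11.8 in family 20, 11.2 in family 26 and 8.67 in family 30, and lay between 3.32 and 6.55 CPM in the remaining 9. ENSGACG00000000137 averaged 23.3 ± 8.40 CPM in the males of family 31, with its females at 13.02 ± 7.22 CPM, against 4.98 and 2.92 CPM in the rest. For ENSGACG00000010891 the corresponding values were 27.7 ± 8.94 and 13.3 ± 4.06 CPM, against 11.4 and 6.56 CPM.

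Leaving out family 31 did not alter the sex ratio of these genes much. The log2 ratio went from 0.74 to 0.78 for ENSGACG00000000107, from 0.73 to 0.75 for ENSGACG00000000137, from 0.80 to 0.78 for ENSGACG00000010891 and from 0.97 to 1.00 for ENSGACG00000000125. The calls for family depended on it for some of these genes and not for others. Without family 31 the call in males was kept for ENSGACG00000000107 (edgeR adjusted p = 6.5e-05) and ENSGACG00000000137 (1.6e-06) and lost for ENSGACG00000010891 (0.43).

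In females the family test called 5 of 36 genes (13.9%) where it called 24.1% of all tested genes. The 8 male-limited genes hold only 1 to 18 counts over all females, and without them it was 5 of 28 (17.9%). Those 28 still include ENSGACG00000010230 and ENSGACG00000012226, which passed the filter through the males. The choice of genes used the family means of females as well, so no conclusion is drawn from these shares. The 5 genes called were ENSGACG00000000107 (edgeR adjusted p = 6.4e-11), ENSGACG00000000137 (1.3e-10), ENSGACG00000004302 (5.3e-09), ENSGACG00000010891 (0.0095) and ENSGACG00000000125 (0.032). All 5 are graded. Without family 31, ENSGACG00000000137 (1.2e-04) and ENSGACG00000004302 (3.4e-08) were still called, and ENSGACG00000000107 (0.085), ENSGACG00000010891 (0.78) and ENSGACG00000000125 (0.18) were not.

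ENSGACG00000004302 differed among families in females but was not called among families in males. Family means of females ran from 1.99 ± 1.92 CPM in family 40 (SD, n = 4) and 3.43 ± 2.84 in family 22 (n = 9) to 11.0 ± 3.00 in family 19 (n = 5) and 11.8 ± 3.58 in family 35 (n = 9). Family means of males ran from 30.9 ± 5.11 CPM in family 31 (n = 7) to 42.7 ± 16.6 in family 26 (n = 6). The highest family mean was 5.95 times the lowest in females and 1.38 times the lowest in males. In CPM the range was not narrower in males. No conclusion on a difference between the sexes is drawn, because the choice of genes used the same family means. The females of families 40, 22, 20 and 17 averaged under 5 CPM, while the males of the same families averaged 33.8, 36.6, 31.5 and 32.5 CPM. The level of this gene also went with the library set, in both sexes. Females averaged 9.99 CPM in set 1, 8.54 in set 2 and 4.47 in set 3, and males 37.84, 34.55 and 30.43 CPM. The log2 ratio of the sexes was 1.91, 2.00 and 2.74. Such a shift was not limited to this gene. ENSGACG00000012099 averaged 229.2, 188.8 and 163.8 CPM in males and 83.21, 75.72 and 59.82 CPM in females. Not every gene fell from set 1 to set 3: ENSGACG00000000137 averaged 5.45, 6.06 and 7.03 CPM in males. The family test had the set as a covariate, and in single sets it called ENSGACG00000004302 in females in 1 of 3. The part of the set in the family differences was not tested beyond that.

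**Figure D5:**
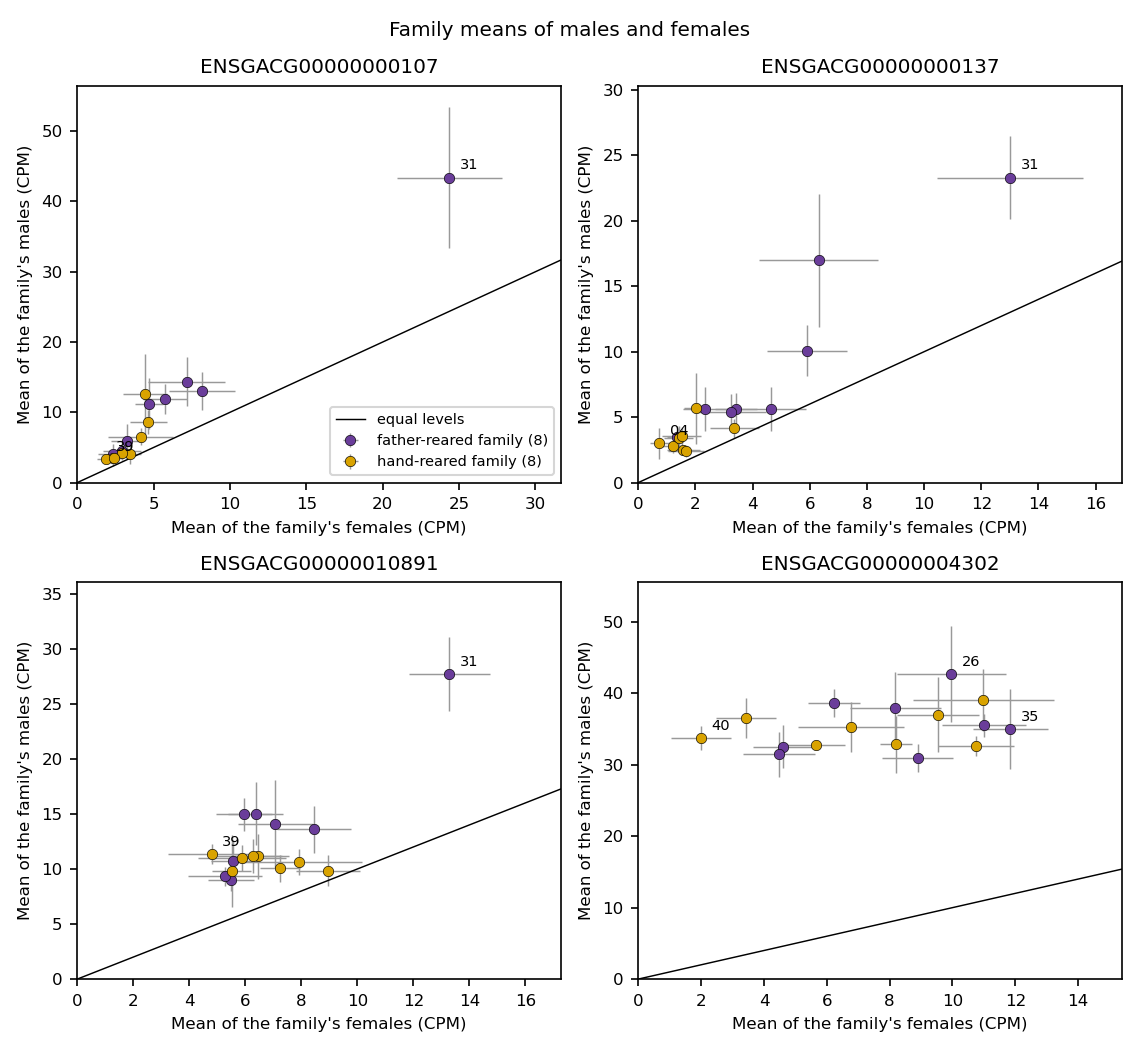
Mean CPM of the males (vertical) against mean CPM of the females (horizontal) of each of the 16 families for 4 genes, with standard errors over the fish of the family, father-reared families in purple, hand-reared families in yellow and a line of equal levels. Family 31 is high in both sexes for the first 3 genes. For ENSGACG00000004302 the female means run from 1.99 to 11.8 CPM and the male means from 30.9 to 42.7 CPM.

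Within families, the 37 genes did not rise and fall together to any marked degree. After the means of family, exposure, side and library set were removed, the 666 pairs of genes had a median Pearson correlation of 0.04 over all males, and 0 pairs exceeded 0.5. The highest, 0.40, joined ENSGACG00000012099 and ENSGACG00000013060, and the next, 0.39, ENSGACG00000012099 and ENSGACG00000013939. In females the same pairs had correlations of 0.04 and 0.11, and the median over all pairs was 0.0003. The points share library and depth, and most of these genes have few counts per fish, so these weak correlations are a description only.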

How the data were processed

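RNA was measured by 3′ tag sequencing in 1 side of the brain of 242 fish. The deposited table holds raw counts per gene identifier, library and lane, in 1452 columns, with 6 lanes per library. Every column was matched to a fish by library name, and 0 columns were left over. Tools listed in the submitters' processing notes are FastQC 0.11.8 and STAR 2.2.3a, together with HTSeq 0.9.1. No source used here gives the genome build, annotation, strand setting or duplicate removal, so counts of near-identical copies (as X and Y copies may be), of overlapping genes and of antisense pairs are uncertain. The files were analysed as the authors' counts, with lanes summed. Libraries under 500000 counts were left out (1 library). CPM was computed by library total, and means ± SD are over fish: 123 males and 118 females (241 fish) unless a smaller group is named. The rule turned round selects 234 female-higher genes. Single library sets without the family condition select 112, 158 and 251 male-higher genes.

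The members, the classes, the gene lists and the tests were chosen with earlier results of these data known. Families were read from fish codes (their first number) and library sets from library names (their first digit). Groups came from the labels, and fish are separate animals. Genes with a mean of at least 0.5 CPM were tested with edgeR 4.0.16 (R 4.3.3), quasi-likelihood F-test, TMM scaling and Benjamini-Hochberg adjustment over all tested genes. Exposure and side had family as a block and library set as a covariate. Rearing was tested on sums over families. DESeq2 1.42.0, limma-voom 3.58.1, other filters and other blocks were alternatives. The tests were checked on simulated counts with known changes. Standard errors were derived from each log2 fold change and its F statistic (their quotient, after taking the root of F), and 95% intervals use the t distribution. Such errors fail for genes with few counts, so intervals are given within males only. There DESeq2's own standard errors put 30, 26 and 28 of the 37 genes within 1.5-fold for exposure, rearing and side. For rearing the derived errors were 0.695 to 1.04 times those of DESeq2. Whether the sex difference varied among families was also tested, and the result is not reported because the choice of genes used the same family means of both sexes. Every member is named. Lowest, median and highest fish were to be given for the male-limited and separated genes and the 6 most abundant graded ones, values for genes past an adjusted p of 0.05, and family means for the 4 genes with the smallest adjusted p for family in males. The gene lists and brain markers need gene names and were not used: 0 of 22456 identifiers matched a reference table of 52177 genes. Counts give the precision of counting only, since duplicate molecules cannot be set apart.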

Additional observations from a re-analysis of the deposited data

Results flagged for a closer look

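Family means of males were compared among the 8 families of each rearing group, gene by gene. Dixon's test sets the gap to the nearest family against the range of all families. By it, 1 family lay far from its nearest neighbour in 9 of these 74 comparisons. About 3.7 such cases are to be had by chance if family means are normal, independent and equally precise. These conditions were not checked, and the means rest on 3 to 11 males each, so 3.7 is a rough guide only. ENSGACG00000003306 averaged 32.7 CPM in hand-reared family 39, the highest, with the next hand-reared family at 8.79 CPM. ENSGACG00000001482 averaged 0.868 CPM in hand-reared family 32, the lowest, which has 3 males, with the next at 2.94 CPM. ENSGACG00000006281 averaged 82.2 CPM in father-reared family 26, the lowest, with the next at 118.9 CPM. Father-reared family 31 was the highest for 3 genes: ENSGACG00000000107 at 43.4 CPM (next 14.3), ENSGACG00000010891 at 27.7 CPM (next 15.03) and ENSGACG00000000125 at 14.5 CPM (next 11.7). Hand-reared family 25 was the lowest for ENSGACG00000012647, at 7.40 CPM (next 9.90), and for ENSGACG00000012079, at 12.9 CPM (next 16.7). ENSGACG00000013049 averaged 2.39 CPM in father-reared family 20, the highest, with the next at 1.68 CPM, which amounts to few counts per fish.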

How the results depend on the processing

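The list, 0.165% of all identifiers, depended on the family condition: with at least 14 families it was 0.263% (59 genes), and in single library sets without that condition 0.499%, 0.704% and 1.12%, which held 33, 35 and 36 of the 37 genes. TMM scaling gave 38 genes, DESeq2 size factors 37, a pseudocount of 0.5 CPM 33 and no library minimum 39, and the number of male-limited genes stayed within 1.5 times of 9 under each of its 5 alternatives. Which genes these were depended on the limits. Under the stricter limit on the share of females with any count, ENSGACG00000003306 (13.6% of females) and ENSGACG00000013600 (11.0%) left the class. No log2 ratio changed sign under TMM scaling or DESeq2 size factors, which says little for genes chosen at a ratio of at least 0.7. A pseudocount added to both means cannot change the sign. Of the log2 ratios, 9 moved by more than the spread between families, all of male-limited genes with the larger pseudocount. For rearing in males, DESeq2 called 1 of the 37 genes (2.7%, all tested genes 0.595%). Single fish as replicates gave 2 in males (5.41%, all tested genes 3.71%) and 2 in females (5.56%, all tested genes 2.91%). For family in males, sets 1, 2 and 3 alone gave 3, 5 and 3 calls (8.11%, 13.5% and 8.11%, all tested genes 5.11%, 6.21% and 2.79%). For family in females, limma-voom gave 8 (22.2%, all tested genes 25.4%). The stricter filter, which kept 24 of the 37 genes, gave 8 (33.3%, all tested genes 38.3%). Sets 1, 2 and 3 alone gave 0, 3 and 2 (0.0%, 9.09% and 5.88%, all tested genes 5.07%, 5.46% and 3.81%). Leaving out family 31 gave 2 (5.56%, all tested genes 19.6%). The cause was not tested where it is not the smaller number of fish or genes. The sibling pair as a replicate block left the number of calls at 0 in males, in females and for the sex-by-exposure term. That term was fitted with limma-voom, because the edgeR fit of it was not completed. A pair here is a baseline fish and an open-field fish with the same family and fish number. This pairing was read from the fish codes, and the labels shown with each fish do not define it. Single sets in the tests, left-out families and the limma-voom fit of pairs were chosen after seeing the data. At about 1000000 counts per library, a mean near 1 CPM rests on 1 count per fish, so males without a count cannot be told from males that lack the transcript.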

Other observations

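The identifiers of the 37 genes were unevenly spread over the numbers in them. In 27 of the 37 genes (72.97%) the number lay between 10000 and 13999, as it did in 19.3% of the 14455 tested genes and in 25.2% of the genes chosen by the same rule as higher in females. Of the 9 male-limited genes 5 lay in this range. The female-higher genes were unevenly spread as well. With the numbers cut into steps of 1000, starting from step 0, steps 0 to 2 and 15 to 20 held 0 of them. Each of these steps held at least 3.75% of the tested genes. Step 5 held the most, 31 (13.2%, tested genes 4.81%). Steps 15 to 20 also held 0 of the 37 genes. An uneven spread was thus not limited to the 37 genes. The range from 10000 to 13999 was chosen after the values were seen. Whether these numbers follow the order of genes along chromosomes is not given in the sources used here. These are therefore counts, and no position is claimed.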
